A study of Homo sapiens with 15 samples.

Results

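The HOX cluster genes are the homeobox genes of the 4 human clusters HOXA, HOXB, HOXC and HOXD. Members were chosen by name alone, as every gene whose symbol is HOXA, HOXB, HOXC or HOXD followed by a position number. This gave 39 of the 33158 genes in the table, 11 in HOXA, 10 in HOXB, 9 in HOXC and 9 in HOXD. HOX genes encode transcription factors that set regional identity along the body axis, and within a cluster the order of the genes follows the order of their use, from low numbers at the head end to high numbers at the tail end and in the distal limbs. HOX proteins bind DNA together with cofactors of the PBX and MEIS families, retinoic acid induces low-numbered members in the embryo, and Polycomb and trithorax complexes keep clusters silent or active. In the breast, several members take part in development of the gland, and altered HOX expression is a known feature of breast tumours.

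RNA sequencing of polyadenylated RNA was done on 3 triple negative breast cancer lines, SUM149PT, HCC1937 and SUM159PT. SUM149PT and HCC1937 cells had been sorted into cancer stem cells (CSCs), with the surface phenotype CD44+ CD24-/low, and the remaining non-CSCs. SUM159PT was used unsorted, and the study treated it as CSCs because most of its cells were CD44+ CD24-. Each of the 5 groups has 3 libraries, and the study compared CSCs with non-CSCs within a line. No treatment is given for any group. Each line is a single source, so a test between libraries measures their spread, which may be technical, and not variation between tumours. The gate defines CSCs by CD44 and CD24 at the cell surface, not by a test of function. For SUM159PT, the line and the lack of sorting cannot be told apart.

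Values are FPKM as deposited, fragments counted per length of transcript and size of library, and library values are given in the order of the replicate numbers. The sequencing depth of the libraries is unknown, so a value of 0 says only that the gene is listed at 0. The SUM159PT libraries stand apart from the sorted ones. Their FPKM values sum to between 634746 and 652082, against 291276 to 366532 in the 12 sorted libraries, and 8534 to 8670 genes exceed 1 FPKM, against 11249 to 11997. Comparisons with SUM159PT therefore depend on the scaling, and the comparisons among sorted fractions use none of its libraries. Correlation between libraries of a group, across genes on the log2 scale, was between 0.987 and 0.993.

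CD24 and CD44, the genes of the sort gate, can be read at the RNA level. CD24 measured 7.97, 7.64 and 7.61 FPKM in SUM149PT CSCs, 147, 137 and 134 in SUM149PT non-CSCs, 23.6, 22.5 and 23.9 in HCC1937 CSCs, 167, 141 and 142 in HCC1937 non-CSCs, and 0.759, 0.682 and 0.745 in SUM159PT. CD24 was thus far lower in the CSCs of both lines, and lowest in SUM159PT. CD44 measured 83.4, 82.9 and 86.8 FPKM in SUM149PT CSCs, 67, 65.3 and 61.4 in SUM149PT non-CSCs, 113, 100 and 106 in HCC1937 CSCs, 96, 95.1 and 102 in HCC1937 non-CSCs, and 28.6, 29.4 and 28.4 in SUM159PT, so CD44 RNA was plentiful in both fractions of the sorted lines. Of the receptors that define the triple negative class, PGR, the progesterone receptor, was at most 0.00303 FPKM in any library, ESR1, the oestrogen receptor, was at most 1.86, and ERBB2 RNA was measured in every library, at 3.39 to 20.0.

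Between 13 and 15 HOX genes reached a group mean of at least 1 FPKM in each group, 14 in SUM149PT CSCs, 13 in SUM149PT non-CSCs, 15 in HCC1937 CSCs, 15 in HCC1937 non-CSCs and 13 in SUM159PT. In all, 22 members reached this level in some group. HOXA3, HOXA10, HOXC4, HOXC6, HOXC9, HOXC10, HOXC11 and HOXC13 are the 8 members that did so in all 5 groups. HOXC10 was the most abundant member and HOXC13 the next in every group, both from the HOXC cluster. HOXC10 alone made up 35.8% of the summed HOX FPKM in SUM149PT CSCs, 34% in SUM149PT non-CSCs, 17.3% in HCC1937 CSCs, 18.3% in HCC1937 non-CSCs and 49.4% in SUM159PT.

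**Figure D1:**
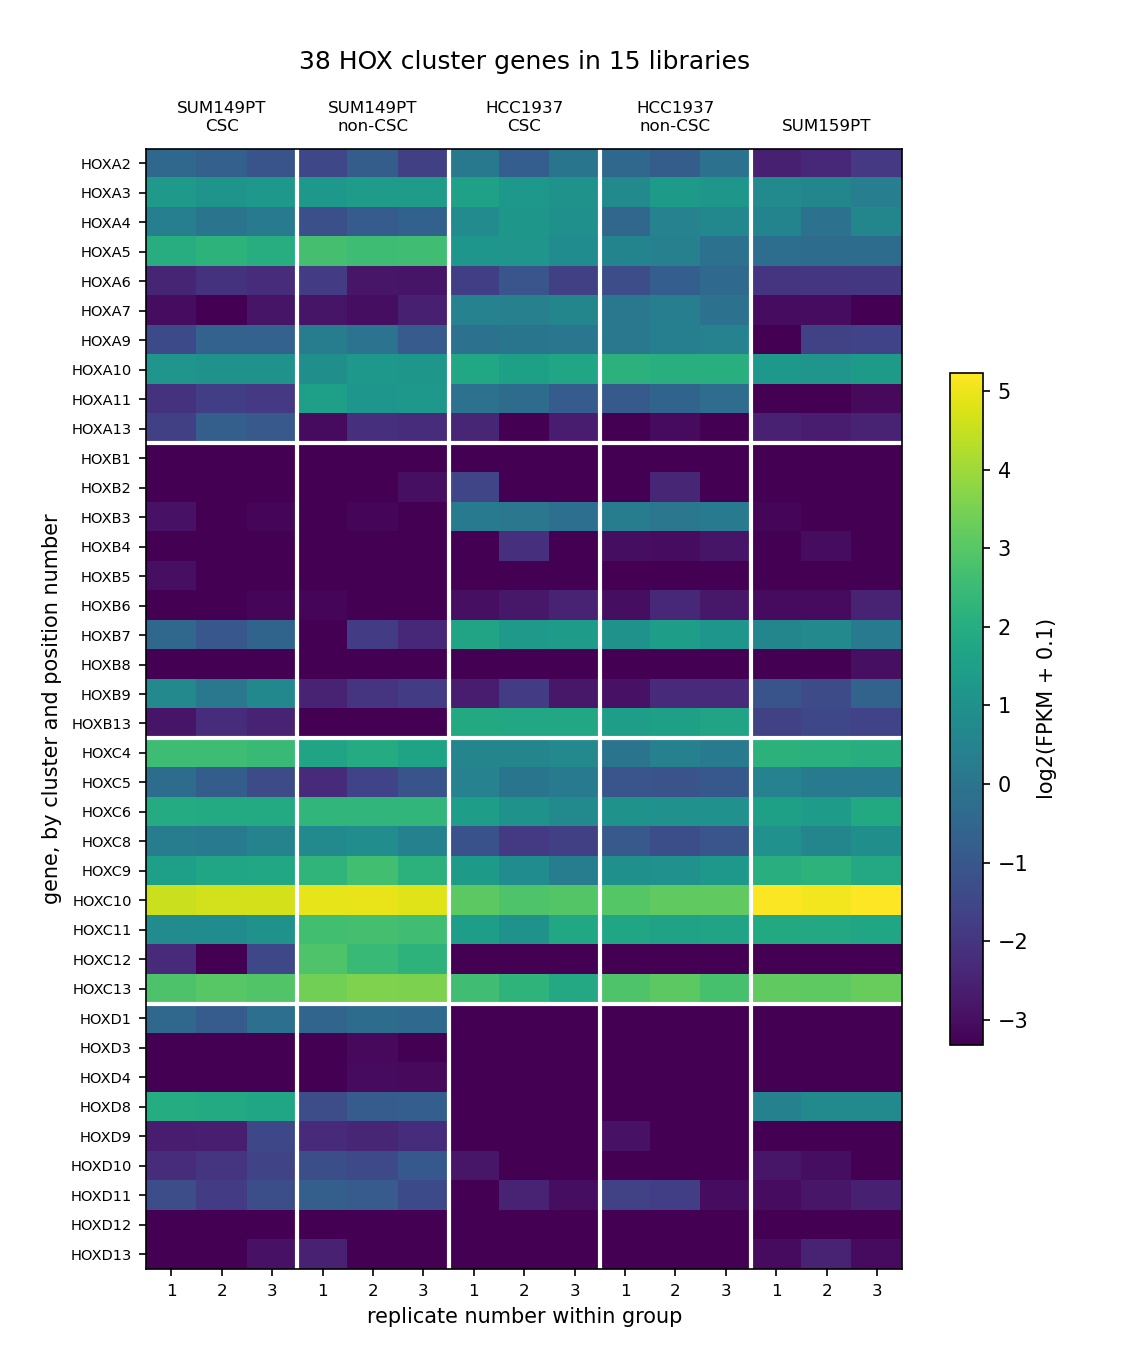
Expression of 38 HOX genes (vertical axis, ordered by cluster and position number) in the 15 libraries (horizontal axis, by group), as log2(FPKM + 0.1). HOXC10 and HOXC13 are the brightest by mean in all 5 groups, and HOXD8 is seen in SUM149PT and SUM159PT but listed at 0 in HCC1937.

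The summed HOX FPKM was 69.1 ± 1.46 (SD, n = 3) in SUM149PT CSCs, 88.0 ± 3.77 in SUM149PT non-CSCs, 44.6 ± 4.13 in HCC1937 CSCs and 46.3 ± 2.46 in HCC1937 non-CSCs. In SUM159PT the sum was 72.5 ± 2.74 FPKM, second only to SUM149PT non-CSCs, but after each library is scaled to the same total (TPM rescaling) SUM159PT was lowest, at 112 against 132 to 282. Shares of the HOX sum do not change with such a factor. HOXC held 69.9% of the sum in SUM149PT CSCs, 77.5% in SUM149PT non-CSCs, 48.5% in HCC1937 CSCs, 53.6% in HCC1937 non-CSCs and 85.8% in SUM159PT. HOXA and HOXB both held more of the sum in HCC1937 than elsewhere. HOXA held 35% in HCC1937 CSCs and 32.4% in HCC1937 non-CSCs, against 20.4% and 20% in the SUM149PT fractions and 9.17% in SUM159PT. HOXB held 16.3% in HCC1937 CSCs and 13.7% in HCC1937 non-CSCs, against 2.86% and 0.281% in the SUM149PT fractions and 2.84% in SUM159PT. HOXD held 6.91% in SUM149PT CSCs, 2.23% in SUM149PT non-CSCs and 2.21% in SUM159PT, but 0.111% and 0.35% in the HCC1937 fractions.

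The shares of central and posterior members differed between the fractions in the same direction in both lines. Central members, with numbers 4 to 8, held 27.8% to 31.4% of the HOX sum in the SUM149PT CSC libraries and 19.1% to 20% in SUM149PT non-CSCs. In HCC1937 they held 28.5% to 30.4% in CSCs and 20.3% to 22.2% in non-CSCs. Posterior members, with numbers 9 to 13, held 59% to 62.8% in SUM149PT CSCs against 72.4% to 74.5% in non-CSCs, and 55.7% to 57.1% against 64.2% to 66% in HCC1937. The shares are a description with no test, they are not independent of each other, and abundant genes such as HOXC10 and HOXC13 carry most of the weight in the posterior class. In SUM159PT posterior members held 76% to 76.8%, the highest share of the 5 groups, and members with numbers 1 to 3 held a mean of 2.83%.

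**Figure D2:**
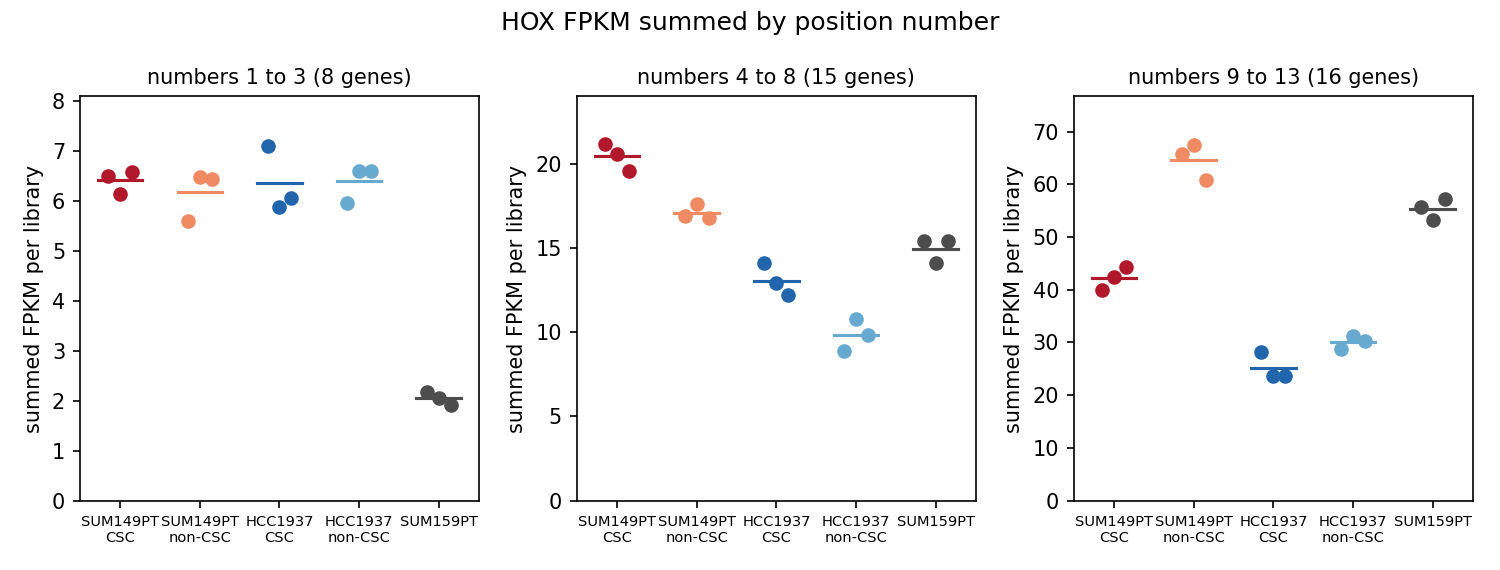
Summed FPKM of HOX genes with numbers 1 to 3 (8 genes), 4 to 8 (15) and 9 to 13 (16), with 1 point per library, a line at the mean and the 5 groups along the horizontal axis. The sum for numbers 9 to 13 was lower in CSCs than in non-CSCs of both lines in FPKM, while the HOX sum of SUM159PT changes its place among the groups from second to last in TPM.

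In GRCh38 (GENCODE 29) the clusters lie on 4 chromosomes, HOXA on chr7 and HOXB on chr17, both on the minus strand, and HOXC on chr12 and HOXD on chr2, both on the plus strand. RefSeq promoter sequences were at hand for 20 of the 39 members, in 27 entries, since HOXA3 and HOXA10 have several start sites. The stretch from position -250 up to the start held a median of 19 CpG dinucleotides in these entries and 11 over the 35116 promoters in the table. The homeodomain core motif TAATTA, searched on both strands, was in 2 of the 27 (7.41%, against 4.35% of all promoters), and the PBX-HOX motif TGATTNAT was also in 2 (7.41% against 2.48%). A match is a string of letters and not a shown binding site.

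Of the 8 members that differed between the SUM149PT fractions, HOXD8, HOXA4, HOXA13 and HOXA11 have a RefSeq promoter, and these 4 are shown because they are the ones whose start regions can be set beside the expression values. Each sequence (RefSeq, GRCh38.p14) is given 5′ to 3′ on the strand of the gene, from position -250 to -51 relative to the start, with each CpG in capitals. The windows are chr2:176129455-176129654 on the plus strand for HOXD8 and, on the minus strand, chr7:27130808-27131007 for HOXA4, chr7:27200142-27200341 for HOXA13 and chr7:27185283-27185482 for HOXA11.
HOXD8: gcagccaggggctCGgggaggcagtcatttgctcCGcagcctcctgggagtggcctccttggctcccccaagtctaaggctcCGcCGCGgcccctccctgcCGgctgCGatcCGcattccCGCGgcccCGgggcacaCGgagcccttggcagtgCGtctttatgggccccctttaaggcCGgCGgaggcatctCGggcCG
HOXA4: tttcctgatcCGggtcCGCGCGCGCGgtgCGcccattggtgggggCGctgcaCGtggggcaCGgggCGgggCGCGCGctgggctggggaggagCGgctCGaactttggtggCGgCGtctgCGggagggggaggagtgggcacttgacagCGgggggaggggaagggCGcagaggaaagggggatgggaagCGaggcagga
HOXA13: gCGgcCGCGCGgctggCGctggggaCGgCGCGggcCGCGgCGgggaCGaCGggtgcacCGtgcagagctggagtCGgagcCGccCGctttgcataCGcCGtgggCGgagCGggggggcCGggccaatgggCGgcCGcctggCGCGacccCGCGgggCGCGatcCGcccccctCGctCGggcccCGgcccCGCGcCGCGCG
HOXA11: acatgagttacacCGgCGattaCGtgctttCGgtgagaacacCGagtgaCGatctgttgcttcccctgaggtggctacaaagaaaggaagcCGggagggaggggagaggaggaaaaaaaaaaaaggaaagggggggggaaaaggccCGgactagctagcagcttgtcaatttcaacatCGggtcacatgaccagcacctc
The 200 bases hold 17 CpG in HOXD8, 22 in HOXA4, 39 in HOXA13 and 9 in HOXA11, with a GC content of 71.5%, 73.5%, 84.5% and 53.0%. HOXA13 thus has the highest CpG density of these and HOXA11 the sparsest, although HOXA13 and HOXA11 are neighbours in the cluster. The HOXA11 window overlaps exons of the antisense gene HOXA11-AS on the other strand. The HOXA13, HOXD8 and HOXA4 windows overlap no annotated exon. They lie within the spans of HOTTIP for HOXA13, HOXD-AS2 for HOXD8, and HOXA3, HOXA-AS2 and HOXA-AS3, among others, for HOXA4.

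In HOXA, the low-numbered member HOXA3 was present in all lines. HOXA3, needed for the thymus and parathyroid, measured 2.31, 2.05 and 2.24 FPKM in SUM149PT CSCs, 2.25, 2.48 and 2.47 in SUM149PT non-CSCs, 2.9, 2.29 and 2.02 in HCC1937 CSCs, 1.6, 2.45 and 2.2 in HCC1937 non-CSCs, and 1.62, 1.41 and 1.17 in SUM159PT. In FPKM the 4 sorted groups overlapped, and SUM159PT overlapped HCC1937 non-CSCs alone and lay below the other 3. HOXA4 measured 1.19, 0.886 and 1.07 FPKM in SUM149PT CSCs, 0.322, 0.457 and 0.535 in SUM149PT non-CSCs, 1.65, 2.23 and 1.87 in HCC1937 CSCs, 0.607, 1.29 and 1.48 in HCC1937 non-CSCs, and 1.35, 0.835 and 1.44 in SUM159PT. In both lines all 3 CSC libraries were above the 3 non-CSC libraries, while SUM149PT CSCs, HCC1937 non-CSCs and SUM159PT overlapped in FPKM.

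HOXA5, a transcription factor known to be silenced by methylation in breast tumours, measured 3.93, 4.48 and 3.96 FPKM in SUM149PT CSCs, 6.41, 5.91 and 6 in SUM149PT non-CSCs, 2.18, 2.11 and 1.68 in HCC1937 CSCs, 1.35, 1.23 and 0.842 in HCC1937 non-CSCs, and 0.761, 0.723 and 0.705 in SUM159PT. No 2 groups overlapped in FPKM, and the order of the fractions was opposite in the lines, with non-CSCs above CSCs in SUM149PT and CSCs above non-CSCs in HCC1937. HOXA7 measured 0.0229, 0 and 0.0414 FPKM in SUM149PT CSCs, 0.0411, 0.0246 and 0.069 in SUM149PT non-CSCs, 1.28, 1.22 and 1.44 in HCC1937 CSCs, 0.964, 1.17 and 0.828 in HCC1937 non-CSCs, and 0.0207, 0.022 and 0 in SUM159PT. It was thus near 0 outside HCC1937, where CSCs lay above non-CSCs. HOXA9, a partner of MEIS1 in blood stem cells and leukaemia, measured 0.28, 0.543 and 0.545 FPKM in SUM149PT CSCs, 1.11, 0.848 and 0.443 in SUM149PT non-CSCs, 0.821, 0.903 and 0.921 in HCC1937 CSCs, 0.984, 1.19 and 1.29 in HCC1937 non-CSCs, and 0.00119, 0.217 and 0.232 in SUM159PT. SUM159PT was lowest, with library 1 far under libraries 2 and 3, and the SUM149PT fractions overlapped.

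Among the posterior HOXA genes, HOXA10, known for its part in uterine development, measured 2.1, 1.96 and 1.96 FPKM in SUM149PT CSCs, 1.83, 2.27 and 2.2 in SUM149PT non-CSCs, 3.34, 2.83 and 3.23 in HCC1937 CSCs, 4.38, 4.16 and 4.01 in HCC1937 non-CSCs, and 2.27, 2.12 and 2.42 in SUM159PT. It was highest in HCC1937 non-CSCs, then HCC1937 CSCs, and the SUM149PT fractions overlapped. HOXA11, which shapes the forearm and the uterus, measured 0.139, 0.203 and 0.169 FPKM in SUM149PT CSCs, 2.77, 2.17 and 2.29 in SUM149PT non-CSCs, 0.829, 0.707 and 0.465 in HCC1937 CSCs, 0.435, 0.584 and 0.725 in HCC1937 non-CSCs, and 0, 0 and 0.0155 in SUM159PT. SUM149PT non-CSCs stood above all other groups, the HCC1937 fractions overlapped, and SUM149PT CSCs were lower than both. HOXA13, needed for the hand, foot and genital tract, stayed under 1 FPKM but reached 0.211, 0.506 and 0.42 in SUM149PT CSCs against 0.0181, 0.128 and 0.113 in SUM149PT non-CSCs. The libraries of the other lines held at most 0.0906 FPKM.

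In HOXB, most members had listed values at or close to 0. HOXB3 measured 0.035, 0 and 0.00815 FPKM in SUM149PT CSCs, 0, 0.00973 and 0 in SUM149PT non-CSCs, 1.05, 0.957 and 0.778 in HCC1937 CSCs, 1.1, 0.95 and 1.02 in HCC1937 non-CSCs, and 0.00796, 0 and 0 in SUM159PT. It was thus close to 0 outside HCC1937, whose fractions overlapped. HOXB7, whose overexpression in breast cancer cells is known to go with a mesenchymal shift, measured 0.62, 0.396 and 0.57 FPKM in SUM149PT CSCs, 0, 0.185 and 0.0959 in SUM149PT non-CSCs, 3.12, 2.36 and 2.48 in HCC1937 CSCs, 1.94, 2.65 and 2.16 in HCC1937 non-CSCs, and 1.42, 1.55 and 1.09 in SUM159PT. HCC1937 was highest with overlapping fractions, followed by SUM159PT, SUM149PT CSCs and SUM149PT non-CSCs without overlap. HOXB9, which takes part in mammary gland development, measured 1.53, 0.977 and 1.51 FPKM in SUM149PT CSCs, 0.0798, 0.146 and 0.186 in SUM149PT non-CSCs, 0.0569, 0.186 and 0.0457 in HCC1937 CSCs, 0.0339, 0.103 and 0.106 in HCC1937 non-CSCs, and 0.363, 0.298 and 0.563 in SUM159PT. In FPKM SUM149PT CSCs were above SUM159PT, and both were above the remaining 3 groups, which overlapped at low values.

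HOXB13, a marker of prostate epithelium that is also known from breast cancer, measured 0.0385, 0.114 and 0.0822 FPKM in SUM149PT CSCs, 0 in the 3 libraries of SUM149PT non-CSCs, 3.54, 3.31 and 3.43 in HCC1937 CSCs, 2.67, 2.83 and 3.11 in HCC1937 non-CSCs, and 0.219, 0.259 and 0.232 in SUM159PT. In FPKM as deposited all 5 groups were separate, and the HCC1937 values were more than an order of magnitude above those of SUM149PT. HOXB9 and HOXB8 lie within the annotated span of HOXB7, so their reads depend on how shared stretches were assigned, which was not given in the sources used here.

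HOXC was the most active cluster. HOXC4 measured 5.94, 5.94 and 5.38 FPKM in SUM149PT CSCs, 3.07, 3.71 and 3.05 in SUM149PT non-CSCs, 1.39, 1.38 and 1.52 in HCC1937 CSCs, 0.869, 1.22 and 1.08 in HCC1937 non-CSCs, and 4.45, 4.23 and 3.89 in SUM159PT. No groups overlapped in FPKM, with SUM149PT CSCs highest and HCC1937 non-CSCs lowest. HOXC5, which shares a RefSeq start with HOXC4, measured 0.723, 0.477 and 0.293 FPKM in SUM149PT CSCs, 0.102, 0.232 and 0.367 in SUM149PT non-CSCs, 1.28, 0.898 and 1.06 in HCC1937 CSCs, 0.375, 0.358 and 0.409 in HCC1937 non-CSCs, and 1.29, 1.07 and 1.07 in SUM159PT. The HCC1937 CSC libraries were all above the HCC1937 non-CSC libraries, while the SUM149PT fractions overlapped. HOXC6 measured 3.71, 3.63 and 3.65 FPKM in SUM149PT CSCs, 4.84, 4.82 and 4.9 in SUM149PT non-CSCs, 2.6, 1.97 and 1.61 in HCC1937 CSCs, 2.01, 1.92 and 1.9 in HCC1937 non-CSCs, and 2.81, 2.49 and 3.53 in SUM159PT. SUM149PT non-CSCs were above SUM149PT CSCs, and the HCC1937 fractions overlapped. HOXC4, HOXC5 and HOXC6 overlap in the annotation, and the span of HOXC6 also covers HOXC8 and HOXC9, so their values are not fully separate measurements.

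HOXC8, a brachial motor neuron gene, measured 1.11, 1.08 and 1.33 FPKM in SUM149PT CSCs, 1.61, 1.72 and 1.26 in SUM149PT non-CSCs, 0.346, 0.173 and 0.211 in HCC1937 CSCs, 0.425, 0.312 and 0.383 in HCC1937 non-CSCs, and 1.89, 1.43 and 1.83 in SUM159PT. Both HCC1937 fractions were lowest and overlapped each other. HOXC9, which specifies thoracic motor neurons, measured 2.77, 3.18 and 3.36 FPKM in SUM149PT CSCs, 4.73, 6.18 and 4.46 in SUM149PT non-CSCs, 2.44, 1.68 and 1.12 in HCC1937 CSCs, 1.86, 1.93 and 2.27 in HCC1937 non-CSCs, and 4.11, 4.53 and 3.49 in SUM159PT. SUM149PT non-CSCs overlapped SUM159PT in FPKM and lay above SUM149PT CSCs, and the HCC1937 fractions overlapped. HOXC10, a gene of the hindlimb and lumbar cord, measured 23.5, 24.9 and 25.7 FPKM in SUM149PT CSCs, 30.3, 31.2 and 28.3 in SUM149PT non-CSCs, 8.33, 7.3 and 7.54 in HCC1937 CSCs, 7.75, 8.86 and 8.86 in HCC1937 non-CSCs, and 36.1, 33.6 and 37.6 in SUM159PT. SUM159PT was highest in FPKM but came behind both SUM149PT groups in TPM, SUM149PT non-CSCs were above SUM149PT CSCs, and the HCC1937 fractions overlapped.

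HOXC11 measured 1.64, 1.68 and 1.98 FPKM in SUM149PT CSCs, 6.11, 6.53 and 6.06 in SUM149PT non-CSCs, 2.6, 1.96 and 3.38 in HCC1937 CSCs, 3.27, 2.97 and 3.1 in HCC1937 non-CSCs, and 3.61, 3.48 and 3.18 in SUM159PT. SUM149PT non-CSCs were highest without overlap, and SUM149PT CSCs were lowest in FPKM, overlapping HCC1937 CSCs through 1 library of each, whereas in TPM SUM159PT came last. HOXC12 measured 0.102, 0 and 0.261 FPKM in SUM149PT CSCs, 7.29, 5.47 and 4.51 in SUM149PT non-CSCs, 0 in the 3 libraries of HCC1937 CSCs, 0 in the 3 libraries of HCC1937 non-CSCs, and 0 in the 3 libraries of SUM159PT. SUM149PT non-CSCs were the group with clear expression, and 1 of the SUM149PT CSC libraries also listed it at 0. HOXC13, which drives hair and nail keratins, measured 7.05, 7.98 and 7.43 FPKM in SUM149PT CSCs, 10.6, 11.8 and 11.5 in SUM149PT non-CSCs, 6.07, 4.65 and 3.52 in HCC1937 CSCs, 7.2, 8.35 and 6.68 in HCC1937 non-CSCs, and 8.86, 8.5 and 9.4 in SUM159PT. SUM149PT non-CSCs were highest, and in HCC1937 the CSCs lay under the non-CSCs without overlap.

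In HOXD a single member exceeded 1 FPKM. HOXD8 measured 3.87, 3.62 and 3.22 FPKM in SUM149PT CSCs, 0.306, 0.465 and 0.486 in SUM149PT non-CSCs, 0 in the 3 libraries of HCC1937 CSCs, 0 in the 3 libraries of HCC1937 non-CSCs, and 1.27, 1.6 and 1.6 in SUM159PT. In FPKM SUM149PT CSCs were highest, SUM159PT next and SUM149PT non-CSCs lowest of the groups with signal, without overlap. Other HOXD values reached at most 0.769 FPKM, in HOXD1, which measured 0.639, 0.461 and 0.769 in SUM149PT CSCs and 0.6, 0.707 and 0.652 in SUM149PT non-CSCs and was listed at 0 in the other 9 libraries. In HCC1937 no HOXD value was above 0.224 FPKM, and 6 of the 9 members are listed at 0 in all its libraries, which cannot be read as absence.

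The other 17 members had group means under 1 FPKM in all groups, and their highest library value was 0.999, for HOXA2 in HCC1937 CSCs. HOXA2 reached at most 0.642 FPKM in SUM149PT and 0.166 in SUM159PT. HOXB1, HOXB5, HOXB6, HOXB8, HOXD3, HOXD4, HOXD12 and HOXD13 are the 8 members that stayed under 0.1 FPKM in all 15 libraries, and HOXB1 and HOXD12 were listed at 0 throughout. HOXA6 was highest in HCC1937 non-CSCs, at 0.303, 0.493 and 0.656 FPKM. HOXD10, a known target of a metastasis-linked microRNA in breast cancer, reached 0.414 in SUM149PT non-CSCs, and HOXD11 reached 0.504 there. The remaining members of this group, HOXB2, HOXB4 and HOXD9, reached at most 0.26 FPKM.

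The comparison of CSCs with non-CSCs in SUM149PT asks which HOX genes go with the sorted phenotype. HOXD8 was 8.53 times, HOXB9 9.75 times and HOXA4 2.39 times as high in CSCs as in non-CSCs by the means of 3 libraries each, and HOXB7 and HOXA13 also rose. In the other direction HOXA11 was 14.2 times and HOXC11 3.52 times as high in non-CSCs, and HOXC12 fell to near 0 in CSCs. HOXC12, HOXA11 and HOXC11, which fell, are posterior members, but so are HOXB9 and HOXA13, which rose, so position number did not separate the genes that rose from those that fell. In bulk RNA, a change in the share of cells that express a gene and a change in RNA per cell cannot be told apart.

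Tests used limma on log2(FPKM + 0.1), and a gene was tested if the libraries compared had a mean FPKM no smaller than 0.1. A gene passes, as higher or lower, when its Benjamini-Hochberg adjusted p is no larger than 0.05 and its log2 difference is 1 or more in size. Of the 39 members 26 were tested, of which 5 (19.2%) were higher in CSCs and 3 (11.5%) lower, beside 12.8% higher and 22.1% lower of the 16037 genes tested. In both directions the shares were 30.8% of the members and 34.9% of all genes, so the members' share was a little under that of all genes. The libraries of the fractions did not overlap for 6 members higher and 9 lower in CSCs, beside 78.7% of all genes in either direction. The median log2 difference was -0.10 for members and -0.11 for all genes. HOXA13, HOXA6 and HOXB7 passed the expression minimum with a non-CSC mean under it, so the filter favoured a difference in these 3, and HOXA13 and HOXB7 then passed the test.

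HOXD8 rose in all 3 CSC libraries relative to all 3 non-CSC libraries (log2 difference 2.84, SE 0.162, adjusted p = 2.91e-05). HOXB9 rose likewise (log2 difference 2.60, SE 0.239, adjusted p = 0.000183). So did HOXB7 (log2 difference 1.81, SE 0.4, adjusted p = 0.00767). HOXB9 and HOXB7 are the HOXB members that passed, and their annotated spans overlap. HOXB13, under the expression minimum in FPKM, was also higher in the CSC libraries. In TPM it reached the minimum through CSCs alone and passed (1.77, adjusted p = 0.00196). The posterior HOXC gene HOXC12 gave the largest difference, a fall (log2 difference -4.89, SE 0.483, adjusted p = 0.00025). HOXA11 fell with little spread (log2 difference -3.22, SE 0.13, adjusted p = 8.85e-06). HOXC11 fell too (log2 difference -1.76, SE 0.087, adjusted p = 1.69e-05). HOXC13, the next gene after HOXC12, fell short of the fold limit and kept most of its level in CSCs. The remaining pair, HOXA4 and HOXA13, had log2 differences of 1.10 and 1.37, each higher in all 3 CSC libraries. HOXA4 was under the fold limit, at 0.94, without library 1 of SUM149PT non-CSCs. HOXB7 had an adjusted p of 0.0531 with a pseudocount of 0.01, and HOXA13 one of 0.0675 without the expression minimum. With a pseudocount of 1, HOXA4 (0.51), HOXB7 (0.48) and HOXA13 (0.34) were under the fold limit. Over the alternatives in processing the log2 difference ranged from 1.69 to 3.23 for HOXD8 and from 1.03 to 3.24 for HOXB9. For HOXC12 it ranged from -6.39 to -2.58, for HOXA11 from -3.76 to -1.54 and for HOXC11 from -1.84 to -1.39.

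**Figure D3:**
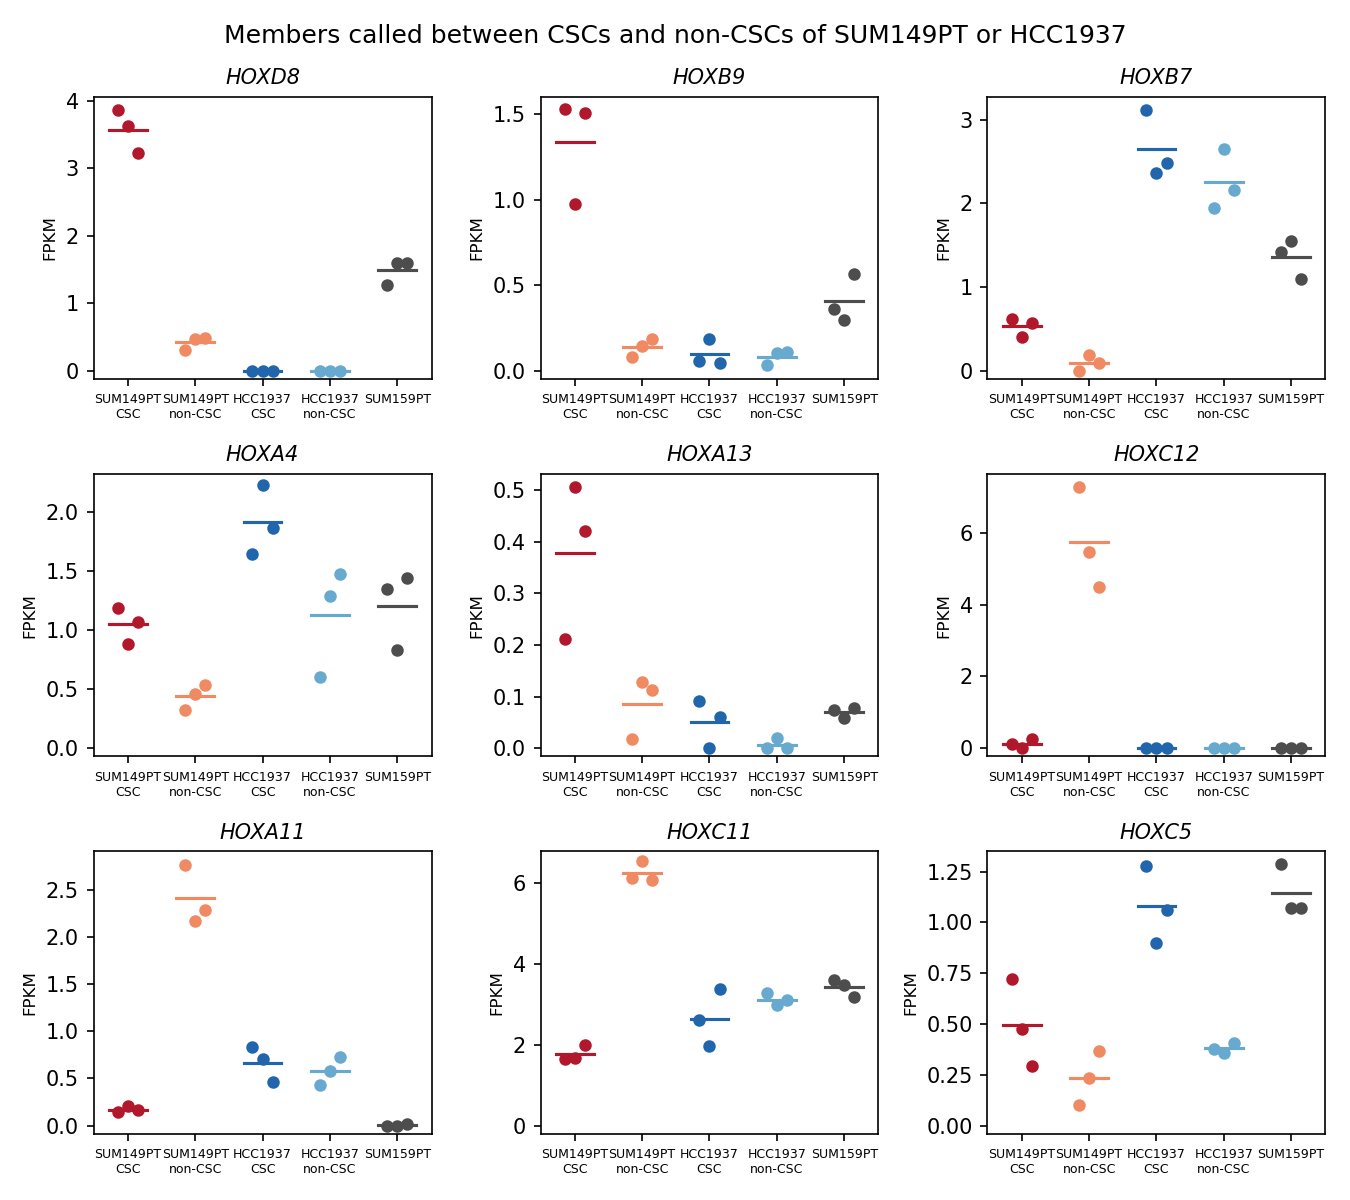
FPKM of HOXD8, HOXB9, HOXB7, HOXA4, HOXA13, HOXC12, HOXA11, HOXC11 and HOXC5 (vertical axes), with 1 point per library and a line at the mean of each of the 5 groups (horizontal axis). HOXD8 lay between 3.22 and 3.87 in SUM149PT CSCs and between 0.306 and 0.486 in SUM149PT non-CSCs, and HOXC12 between 4.51 and 7.29 in SUM149PT non-CSCs and at most 0.261 in any other library.

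Several abundant members moved by less than the fold limit with a small adjusted p. HOXC4 was higher in the CSCs by 0.80 on the log2 scale (adjusted p = 0.000623). HOXC13 had a difference of -0.59, HOXC9 of -0.69, HOXA5 of -0.56, HOXC6 of -0.39 and HOXC10 of -0.28, each with an adjusted p under 0.05. HOXC4 was thus the HOXC member of these that was higher in CSCs. The median log2 difference of all genes moved from -0.111 to 0.103 under quantile normalization, and the share of higher calls from 36.5% to 51.2%. The members' counts were then 7 higher and 3 lower, with HOXA2 (1.18) and HOXC5 (1.44) added. With the GC trend removed they were also 7 higher and 3 lower, with HOXC4 (1.01) and HOXC5 (1.18) added.

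Genes that act with HOX proteins were described from lists. Of 9 PBX, MEIS and PKNOX cofactors, 3 rose and 3 fell in SUM149PT CSCs. PKNOX2 rose from 3.3, 3.38 and 4.17 to 36.2, 36.5 and 35.5 FPKM (log2 difference 3.29) and PBX3 also rose (1.17), whereas PBX2 (-3.97) and MEIS2 (-1.25) fell. PBX2 lies in the major histocompatibility region, for which GRCh38 holds alternate copies, so its level depends on read assignment that is not given in the sources used here. Of 9 noncoding RNAs of the clusters tested, 3 fell and 0 rose, among them HOXC13-AS (-2.09), which overlaps HOXC13, and HOXA10-AS (-1.16). As the use of strands was not stated, reads from the stretches that HOXC13 shares with HOXC13-AS, or HOXA11 with HOXA11-AS, cannot be assigned with certainty.

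None of the 7 tested genes that flank the clusters passed the limma test in SUM149PT, with 3 higher and 2 lower at an unadjusted p of at most 0.05. Of 21 Polycomb genes 2 rose, RBBP7 (1.14) and CBX6 (1.11), and 0 fell, with 12 higher and 5 lower at an unadjusted p of at most 0.05. Of 13 trithorax genes and H3K27 demethylases 2 rose, DOT1L (1.11) and KMT2A (1.01), and 2 fell, among them PSIP1 (-1.80). In the retinoic acid pathway 2 of 10 genes rose and 5 fell, with STRA6 (-3.63), the retinol transporter, CRABP2 (-3.56) and RDH10 (-3.46) among the latter. The 6 ParaHox genes, relatives of HOX outside the clusters, were below the minimum in all 6 comparisons, and GSX1, GSX2 and CDX4 were listed at 0 throughout.

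Markers of cell state also differed between the SUM149PT fractions. All 5 epithelial markers fell in SUM149PT CSCs, among them EPCAM (-4.44) and CDH1 (-4.52), and their summed level was 122, 127 and 125 FPKM in CSCs against 1686, 1637 and 1662 in non-CSCs. Of 4 mesenchymal markers 3 rose and 0 fell, and their sum was 2338, 2485 and 2397 against 456, 447 and 508, with VIM the most abundant in CSCs. Of 4 basal markers TP63 rose (2.24) and KRT5 (-4.62) and KRT17 (-3.02) fell, with sums of 82.9, 85.2 and 84.9 against 711, 686 and 658 FPKM. CD24 fell (-4.15) and CD44 did not pass the fold limit (0.39), and of 2 receptors tested ESR1 fell (-2.61). The part of these cell states in the HOX differences was not tested.

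Of the leukocyte markers CD3E was listed at 0 in all 15 libraries and PTPRC reached at most 0.0986 FPKM, while CD14 (-4.23) and CD68 (-1.57), which were tested, both fell in SUM149PT CSCs. Their summed level was 19.1, 19.3 and 18.2 FPKM in CSCs and 101, 95.6 and 103 in non-CSCs, with CD68 the more abundant in CSCs and CD14 in non-CSCs. Both endothelial markers fell, at sums of 0.171, 0.154 and 0.128 against 1.01, 1.14 and 1.08 FPKM, with PECAM1 the more abundant in CSCs and VWF in non-CSCs. Of 3 fibroblast markers COL3A1 rose (2.26) and DCN fell (-3.10), with sums of 11.6, 11.4 and 11.5 against 20.1, 18.2 and 17.4 FPKM, mostly COL3A1 in CSCs and DCN in non-CSCs. HBB, the erythroid marker, was at most 0.131 FPKM in any library and was not tested. The part of these genes in the HOX differences was not tested.

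The same comparison in HCC1937 asks whether the fractions of another line differ in HOX genes. HOXC5 was the 1 member that passed, at 2.83 times the non-CSC mean in CSCs, with all 3 CSC libraries above all 3 non-CSC libraries (log2 difference 1.28, SE 0.131, adjusted p = 0.00169). HOXA5 was higher in CSCs by less than the fold limit (log2 difference 0.77, SE 0.194, adjusted p = 0.0372). HOXA10 was lower by less than the limit (log2 difference -0.41, SE 0.0878, adjusted p = 0.0217). HOXA4, which rose in SUM149PT CSCs, was also higher in all 3 HCC1937 CSC libraries, but its difference of 0.79 had an adjusted p of 0.137.

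Of 39 members 21 were tested in HCC1937, of which 1 (4.76%) was higher and 0 lower by limma, beside 2.71% higher and 6% lower of the 15582 genes tested, or 8.71% in both directions. At an unadjusted p of at most 0.05, 5 members were higher and 4 lower, beside 16.1% higher, 21.7% lower and 37.8% in all of the genes tested. The fractions did not overlap for 6 members higher and 4 lower in CSCs, beside 43.4% of all genes. HOXA9 (-0.35), HOXA10 (-0.41) and HOXC13 (-0.66) were among those lower without overlap. The members' median was 0.06 and that of all genes -0.03, and TPM rescaling moved the latter from -0.032 to 0.09 and the share of higher calls from 31.1% to 42.1%. HOXC5 was below the fold limit with a pseudocount of 1 (0.59), and HOXD11, not tested with all libraries, was called lower (-1.25) without library 3 of HCC1937 non-CSCs.

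Few genes of the HOX-related lists passed in HCC1937. HOXA10-AS fell (-1.13), as the 1 of 8 noncoding RNAs that did, while 0 rose. Of the retinoic acid genes CRABP2 fell (-2.47), 1 of 10, and 0 rose. By limma 0 of 8 cofactors passed (2 higher and 3 lower at an unadjusted p of at most 0.05), 0 of 21 Polycomb genes (4 higher, 5 lower), 0 of 13 trithorax genes (2 higher, 2 lower) and 0 of 7 flanking genes (1 higher, 1 lower). The epithelial markers again fell, 5 of 5, with sums of 503, 467 and 419 FPKM in CSCs against 1408, 1427 and 1216 in non-CSCs. All 4 mesenchymal markers rose, with sums of 1077, 947 and 923 against 140, 211 and 186 FPKM. KRT5 (-1.33) and KRT17 (-1.22) fell among 4 basal markers, with sums of 232, 216 and 202 against 443, 433 and 390 FPKM, and CD24 (-2.67) and ESR1 (-1.85) fell as well. Of the leukocyte markers 0 of 2 tested passed (1 higher and 0 lower at an unadjusted p of at most 0.05), of the fibroblast markers 0 of 1 (1 higher) and of the endothelial markers 0 of 1 (0 in both directions). The part of these markers in the HOXC5 difference was not tested.

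**Figure D4:**
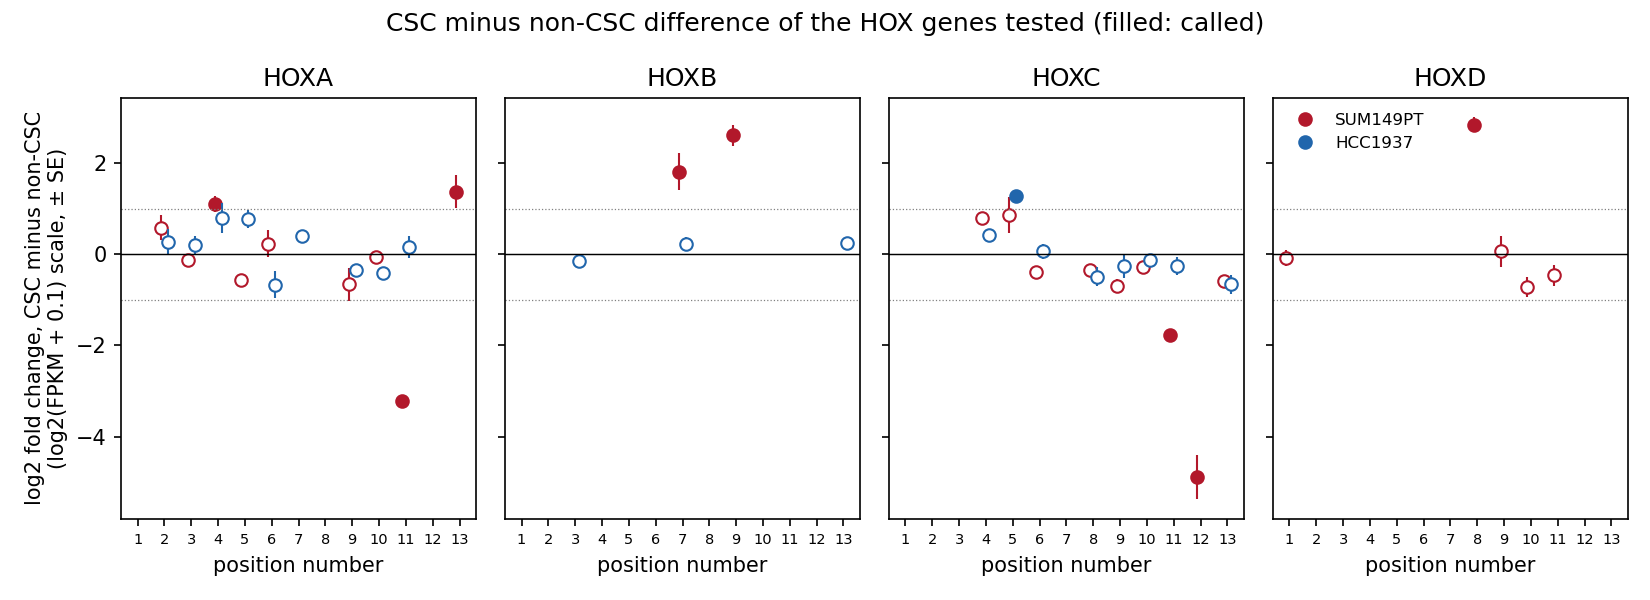
Log2 difference of CSCs minus non-CSCs with its SE (vertical axis) for tested members by position number (horizontal axis), 1 panel per cluster, with SUM149PT in red, HCC1937 in blue, filled points for members that passed the test and dotted lines at -1 and 1. In SUM149PT HOXC12 (-4.89) and HOXA11 (-3.22) lie lowest and HOXD8 (2.84) highest, while in HCC1937 HOXC5 (1.28) is the filled point.

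Whether the CSC effect differs between the lines was tested directly as SUM149PT minus HCC1937, in a fit over the 12 sorted libraries. HOXD8 and HOXB9 had the largest positive differences and HOXC12 and HOXA11 the largest negative ones. HOXA5 went in opposite directions, lower in SUM149PT CSCs and higher in HCC1937 CSCs (log2 difference -1.32, SE 0.219, adjusted p = 0.000473), though under the fold limit with a pseudocount of 1 (-0.96). The difference was also clear for HOXA11 (log2 difference -3.38, SE 0.292, adjusted p = 5.53e-06), which had overlapping fractions in HCC1937. HOXC11 behaved in the same way (log2 difference -1.50, SE 0.224, adjusted p = 0.00024).

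Of the 28 members tested 3 (10.7%) had a higher effect in SUM149PT and 4 (14.3%) a lower one, 25% in all, beside 12.2% higher, 18.2% lower and 30.4% in all of 16451 genes. HOXB7 had the higher effect in SUM149PT (log2 difference 1.58, SE 0.461, adjusted p = 0.0134), but it did not pass with a pseudocount of 0.01 (adjusted p = 0.0701) or of 1 (0.31, adjusted p = 0.084). HOXD8 (2.84) and HOXC12 (-4.89) are listed at 0 in all 6 HCC1937 libraries, so their differences hold the SUM149PT effect alone. HOXB9 (2.53) passed the expression minimum through SUM149PT, with HCC1937 means of 0.0962 and 0.0811 FPKM, so its difference is nearly the SUM149PT effect alone too. In 10 of the 28 members, HOXA13, HOXA7, HOXB13, HOXB3, HOXB9, HOXC12, HOXD1, HOXD10, HOXD11 and HOXD8, 1 line had a mean under the expression minimum. HOXC5, which passed in HCC1937 and not in SUM149PT, is not shown to differ between the lines (-0.42, adjusted p = 0.438). The same holds for HOXA4 (0.31, adjusted p = 0.521) and HOXA13 (0.91, adjusted p = 0.117), though HOXA13 passed after quantile normalization (1.48, adjusted p = 0.017).

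The members' median difference of effects was 0.11, that of all genes -0.08, and quantile normalization moved the latter from -0.079 to 0.061 and the share of higher calls from 40.2% to 50.7%. Leaving out a library changed some calls. HOXA13 passed (1.20) without library 1 of SUM149PT CSCs, HOXD10 (-1.08) without library 3 of SUM149PT CSCs and HOXA6 (1.22) without library 1 of SUM149PT non-CSCs. After quantile normalization HOXA13 (1.48) and HOXA6 (1.41) passed too. HOXB13 passed with a pseudocount of 0.01 (2.78) and in TPM (1.39), where HOXD10 (-1.27) did as well. In the related lists, 3 of 9 cofactors had a higher effect in SUM149PT and 2 a lower one, and for noncoding RNAs the counts were 1 and 3 of 9, with HOTAIRM1 (1.36) higher and HOXC13-AS (-1.84) lower. For the flanking genes they were 1 and 1 of 7, for Polycomb 2 and 0 of 21, for trithorax 0 and 2 of 13 and for retinoic acid genes 1 and 4 of 11. Among the markers 3 of 5 epithelial genes had a lower effect in SUM149PT and 0 a higher one, and the basal counts were 1 higher and 2 lower of 4, while for 4 mesenchymal genes and 2 receptors limma gave 0 (at an unadjusted p of at most 0.05, 3 higher and 1 lower, and 0 and 1). The effect was lower for both leukocyte and both endothelial markers and for CD24, and for fibroblast markers 1 was higher and 2 lower of 3.

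Averaged over both fractions, HCC1937 and SUM149PT carried different HOX profiles. HCC1937 had far more HOXB13, HOXB3, HOXA7 and HOXB7, and less HOXC8, HOXC4, HOXC10 and HOXA5. HOXD8, HOXC12 and HOXD1 were measured in SUM149PT and listed at 0 in HCC1937, and no fold is given for them. HOXB13 (4.61), HOXB3 (3.31) and HOXA7 (3.23) were higher in all 6 HCC1937 libraries than in any SUM149PT library. They reached the expression minimum through HCC1937 alone, which favours a difference, and they also passed without that minimum. HOXB7, which HCC1937 also held at the higher level, was measured in both lines (log2 difference 2.93, SE 0.23, adjusted p = 6.54e-07). The posterior HOXC10 was lower in HCC1937 (log2 difference -1.74, SE 0.0553, adjusted p = 5.86e-10), and so was the central HOXC4 (log2 difference -1.75, SE 0.0825, adjusted p = 1.12e-08).

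Of the 28 members tested 5 (17.9%) were higher in HCC1937 and 13 (46.4%) lower, 64.3% in all, beside 22.4% higher, 17.9% lower and 40.3% in all of 16451 genes. The 10 members named above with 1 line under the expression minimum reached it through the other line, which favours a difference, and all 10 passed. Pass rates inside and outside this split are not compared, since the difference itself decides the split. The same 18 members passed without the expression minimum. Besides those named, HOXA6 was higher, and HOXC8 (-1.85), HOXA5 (-1.68), HOXD10 (-1.66), HOXB9 (-1.65), HOXD11 (-1.31), HOXA13, HOXC9 and HOXC6 lower. All HOXC members that passed were thus lower in HCC1937, while HOXC5, HOXC11 and HOXC13 did not pass.

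The members' median was -0.47 against 0.16 for all genes, and upper quartile scaling moved the latter from 0.165 to -0.004 and left 5 members higher and 13 lower. With a pseudocount of 1 these counts were 3 and 5, and HOXC6 (-0.81), HOXC8 (-0.84), HOXC9 (-0.81), HOXB3 (0.97), HOXB9 (-0.58), HOXD1 (-0.71), HOXD10 (-0.31), HOXD11 (-0.30), HOXA6 (0.31) and HOXA13 (-0.25) were under the fold limit. HOXC6 (-0.97) and HOXC9 (-0.94) were under the fold limit without library 3 of HCC1937 CSCs, HOXA13 missed the expression minimum without library 2 of SUM149PT CSCs, and HOXA4 (0.97 with all libraries) passed at 1.01 to 1.15 without library 1 of SUM149PT CSCs, library 3 of SUM149PT non-CSCs, library 1 of HCC1937 CSCs or library 1 of HCC1937 non-CSCs. Since each line is a single source, these are differences between these cultures.

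HOX cofactors differed with the lines as well, 1 of 9 higher in HCC1937 and 3 lower. PKNOX2 was at most 0.0558 FPKM in HCC1937 (log2 difference -6.37), and MEIS1, at most 0.257, was also lower (-5.03). PKNOX2 reached the expression minimum through SUM149PT alone, so the size of its difference depends on the pseudocount. Of 9 noncoding RNAs 2 were higher, HOXA11-AS (2.36) and HOTAIR (2.21), the latter lying antisense within HOXC, and 2 lower. Higher and lower counts were 1 and 0 of 7 for flanking genes, 3 and 5 of 21 for Polycomb, 1 and 1 of 13 for trithorax, and 3 and 4 of 11 for retinoic acid genes. PCGF2 and RING1, both Polycomb genes, were listed at 0 in all 15 libraries, which cannot be read as absence. Of the marker lists, 4 of 5 epithelial genes were higher in HCC1937 and 1 lower, 1 of 4 basal genes higher, 1 of 4 mesenchymal genes lower and both receptors tested higher. For the other cell types 1 of 2 leukocyte genes was higher, 2 of 3 fibroblast genes lower, and of 2 endothelial genes 1 was higher and 1 lower, while for CD44 and CD24 limma gave 0 (2 higher and 0 lower at an unadjusted p of at most 0.05). The part of these markers in the HOX differences between the lines was not tested.

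The unsorted SUM159PT line was set against the CSCs of each sorted line, since the study treated it as CSCs. These 2 comparisons share the SUM159PT libraries, and their values are given side by side without a test of likeness. Against SUM149PT CSCs, FPKM as deposited gave lower HOXA5 and HOXA2 and higher HOXB7 and HOXC5 in SUM159PT, and HOXD1 was listed at 0 in SUM159PT. Against HCC1937 CSCs it gave lower HOXA7, HOXB13, HOXB3, HOXA11, HOXA9, HOXA2 and HOXA5, of which HOXA5 (-1.32) had the other sign after quantile normalization (0.44, adjusted p = 0.011), and higher HOXC8, HOXC10, HOXC4, HOXB9 and HOXC9. HOXA5 was also under the fold limit there after upper quartile scaling (-0.80), with the GC trend removed (-0.85) and with a pseudocount of 1 (-0.79). HOXD8 was measured in SUM159PT and listed at 0 in HCC1937 CSCs.

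Against SUM149PT CSCs 23 members were tested, of which 2 (8.7%) were higher and 9 (39.1%) lower, beside 21.3% higher, 45.6% lower and 66.9% in all of 14976 genes. HOXA5 was lower in all 3 SUM159PT libraries (log2 difference -2.35, SE 0.0807, adjusted p = 7.27e-07). HOXA5 was thus lowest in SUM159PT in FPKM and TPM, though not after quantile normalization. HOXB7 was higher in all 3 in FPKM (log2 difference 1.21, SE 0.188, adjusted p = 0.000925), but in TPM it did not pass (0.26, adjusted p = 0.322). HOXA2 (-1.54), HOXB9 (-1.51), HOXD11 (-1.35) and HOXA9 (-1.30) were also lower, as were HOXA13 (-1.44), which was higher with the GC trend removed (1.04, adjusted p = 0.00714), and HOXD8 (-1.21), whose sign turned under quantile normalization (0.23, adjusted p = 0.0967). After quantile normalization HOXA5 (-0.86), HOXA2 (-0.42), HOXA9 (-0.16), HOXB9 (-0.03), HOXD11 (-0.32) and HOXA13 (-0.36) did not pass, and in TPM HOXC5 (0.18) did not. With the GC trend removed HOXC5 (0.57), HOXA2 (-0.95), HOXD8 (-0.40) and HOXA9 (adjusted p = 0.0638) did not, and after upper quartile scaling HOXD8 (-0.89) and HOXA9 (adjusted p = 0.0974) did not. With a pseudocount of 1, HOXA2, HOXA9, HOXA13, HOXB7, HOXB9, HOXC5, HOXD1, HOXD8 and HOXD11 were under the fold limit. In 4 of the 23 members, HOXA13, HOXB13, HOXD1 and HOXD11, 1 group had a mean under the expression minimum.

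HOXA9 rested on single libraries, and it did not pass with a pseudocount of 0.01 (adjusted p = 0.131) or without the expression minimum (adjusted p = 0.2). Its adjusted p was 0.0493 with all libraries, 0.127 without library 2 and 0.12 without library 3 of SUM149PT CSCs (log2 difference -1.17 in both), and its difference was -0.74 without library 1 of SUM159PT. HOXC5 (1.12) was at 0.85 without library 3 of SUM149PT CSCs. HOXB13 passed (1.08) without library 2 of SUM149PT CSCs. HOXA11 passed (-1.32, -1.32 and -1.43) without library 1, 2 or 3 of SUM159PT, and HOXD10 (-1.23 and -1.12) without library 1 or 2, neither being tested with all libraries.

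Against HCC1937 CSCs 23 members were tested, of which 6 (26.1%) were higher and 8 (34.8%) lower, beside 18.5% higher, 48.3% lower and 66.8% in all of 15515 genes. HOXA7 was at most 0.022 FPKM in SUM159PT and at least 1.22 in HCC1937 CSCs, through which it passed the expression minimum. HOXB13 was lower in all 3 SUM159PT libraries (log2 difference -3.39, SE 0.0868, adjusted p = 2.46e-07). Both genes were near 0 in SUM149PT CSCs as well, so the high values of both were those of HCC1937. Apart from HOXD8, listed at 0 in HCC1937 CSCs, HOXC8 (log2 difference 2.42, SE 0.21, adjusted p = 4.35e-05) and HOXC10 (log2 difference 2.20, SE 0.095, adjusted p = 1.5e-06) had the largest differences of the higher members. HOXC4 (1.49), HOXB9 (1.41) and HOXC9 were higher too, and HOXB3 (-3.31), HOXA11 (-2.84), HOXA9 (-2.16) and HOXA2 (-2.07) lower. HOXA11, HOXA7, HOXB3, HOXB9 and HOXD8 passed the minimum with 1 group mean under it, and all 5 passed the test. A gene low in 1 group reaches the minimum by being higher in the other, so no pass rate is compared for these 5. Without the expression minimum the same 14 members passed. After quantile normalization HOXA2 (-0.64) and HOXA9 (-0.71) did not pass, and in TPM HOXC4 (0.53), HOXC9 (0.26) and HOXB9 (adjusted p = 0.0903) did not. With a pseudocount of 1, HOXA2, HOXA9, HOXA11, HOXB3, HOXB9 and HOXC9 were under the fold limit. HOXC9 was at 0.95 without library 3 of HCC1937 CSCs, HOXC13 passed (1.12) without library 1 of them, and HOXB7 passed (-1.0 and -1.03) without library 2 of HCC1937 CSCs or library 2 of SUM159PT.

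Scaling decided how many members were higher or lower in SUM159PT. The median log2 difference of all genes against SUM149PT CSCs was -0.758 as deposited, -0.463 after upper quartile scaling, 0.038 after quantile normalization, -1.723 in TPM and -0.01 with the GC trend removed. Against HCC1937 CSCs it was -0.966, -0.464, -0.006, -1.826 and -0.025. The share of higher calls moved with it, from 31.8% to between 11.4% and 50.9% against SUM149PT CSCs and from 27.6% to between 12.8% and 50.3% against HCC1937 CSCs. The members' counts moved too. Against SUM149PT CSCs 2 were higher and 9 lower as deposited, but 9 higher and 1 lower after quantile normalization, 0 higher and 15 lower in TPM, and 3 higher and 6 lower with the GC trend removed. Against HCC1937 CSCs the counts were 6 and 8, 12 and 4, 3 and 13, and 6 and 6. The members' own median as deposited was -0.32 against SUM149PT CSCs and -0.48 against HCC1937 CSCs, above the medians of all genes. It was also above them after upper quartile scaling (0 and -0.1), after quantile normalization (0.88 and 1.05) and in TPM (-1.71 and -1.2). With the GC trend removed it was -0.36 and -0.28, below them.

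**Figure D5:**
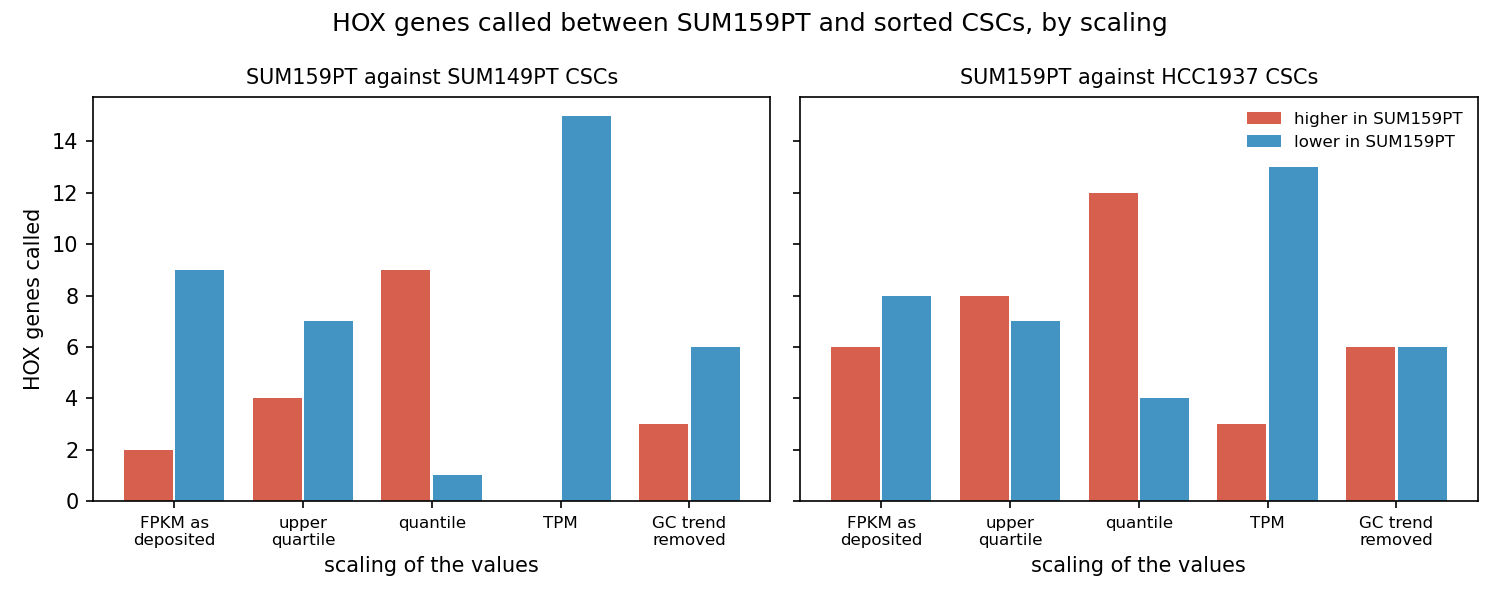
Number of HOX genes called higher or lower in SUM159PT (vertical axis, bars from 0) against SUM149PT CSCs and HCC1937 CSCs under 5 scalings of the FPKM values (horizontal axis). Against SUM149PT CSCs the counts were 2 higher and 9 lower as deposited, and 9 higher and 1 lower after quantile normalization. Only 3 calls were shared by both, so most calls were of other members.

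Most lists of genes related to HOX had more genes lower than higher in SUM159PT as deposited, but the noncoding RNAs of the clusters had as many higher as lower against SUM149PT CSCs. Of 9 cofactors 0 were higher and 6 lower against SUM149PT CSCs, with MEIS1 (-4.37) and MEIS2 (-2.34) lower, and 3 were higher and 6 lower against HCC1937 CSCs, with PKNOX2 (7.62) higher. In the latter PKNOX2 reached the expression minimum through SUM159PT alone, so the size of its difference depends on the pseudocount. After quantile normalization the cofactor counts were 2 and 2, and 3 and 1, with PBX2 turning in sign against SUM149PT CSCs and PBX3, PBX4 and PKNOX1 against HCC1937 CSCs. The noncoding RNA HOXC-AS1 stood out, with 35.1, 41.2 and 34.3 FPKM in SUM159PT and at most 3.97 in any other library, and of 8 tested 2 were higher and 2 lower against SUM149PT CSCs, and 1 and 2 against HCC1937 CSCs, but 4 and 1 in both after quantile normalization. For Polycomb 4 were higher and 13 lower of 21, and 2 and 10, with JARID2 (-4.58) and SUZ12 (-3.45) lower against SUM149PT CSCs, but with the GC trend removed they were 0 and 4, and 4 and 5, and EED (-2.55 to 0.35), PCGF6 (-1.96 to 0.35) and RBBP7 (-1.18 to 0.57) turned in sign against SUM149PT CSCs and PCGF6 and RNF2 against HCC1937 CSCs. Trithorax counts were 1 and 8 of 13, and 0 and 5, with ASH2L turning in sign against SUM149PT CSCs when the GC trend was removed (-1.21 to 0.40), and those of retinoic acid genes were 0 and 6 of 9, and 2 and 6 of 10. Flanking genes gave 2 and 4 of 7, and 1 and 3, but 3 and 1 of 6 in both comparisons with the GC trend removed, where CBX5 (-1.75 to 0.88) and HIBADH (-1.60 to 0.18) turned in sign against SUM149PT CSCs. In SUM159PT the epithelial markers EPCAM (at most 0.0683 FPKM) and CDH1 (at most 0.0886) were near 0, their list summed to 291, 276 and 290 FPKM, with KRT18 the most abundant, and the mesenchymal list to 1227, 1234 and 1257, with VIM the most abundant. Against SUM149PT CSCs all 4 basal markers were lower, 2 of 5 epithelial markers higher and 3 lower, and 2 of 4 mesenchymal markers lower, and against HCC1937 CSCs the basal counts were the same, 2 of 5 epithelial markers were lower, and 1 of 4 mesenchymal markers was higher and 2 lower. CD44 and CD24 were lower in both comparisons. Higher and lower counts of the other lists were 1 and 0 of 2 for leukocyte, 1 and 1 of 2 for fibroblast and 1 and 0 of 1 for receptor genes against SUM149PT CSCs, and 0 and 1 of 2, 2 and 1 of 3, and 0 and 1 of 2 against HCC1937 CSCs, where the 1 endothelial gene tested was lower. The lower fibroblast gene, LUM (-1.44), was higher with the GC trend removed (1.62, adjusted p = 0.00506), and VIM, which did not pass against HCC1937 CSCs (0.24), was lower after quantile normalization (-1.57). The part of these markers in the HOX differences was not tested.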

How the data were processed

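FPKM values of 33158 genes in 15 libraries of 5 groups were used as deposited by the authors, whose processing notes name Bowtie2 and GRCh38 without versions. The quantification tool, the use of strands and the depth per library are not given in the sources used here, so a low value cannot be given a precision. Members and lists were chosen with earlier results of these data known. From the FPKM, sums and group means were computed, and 6 comparisons were tested in R 4.3.3 with limma 3.58.1 (lmFit and eBayes) on log2(FPKM + 0.1), for genes whose mean over the comparison's libraries was 0.1 FPKM or more, with Benjamini-Hochberg adjustment. Passing required an adjusted p up to 0.05 and a log2 difference of 1 or more in size. The fits were first run on simulated data, with differences planted in genes with a mean of 1 FPKM or more. That run does not cover members at lower levels. Tables and figures used Python 3.11.15, numpy 2.4.6, pandas 2.3.3 and matplotlib 3.10.9.

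Members with a group mean of 1 FPKM or more are given with all library values, members that passed are named in each comparison, the largest 12 with values, and of each list up to 4 genes that passed, with the largest differences and a group mean of 1 FPKM or more, are named. Members named short of the fold limit, and genes named for a value of 0, lie outside this rule. Lists covered cofactors, noncoding RNAs, flanking genes, Polycomb, trithorax, the retinoic acid pathway, ParaHox and cell type markers. Alternatives changed the pseudocount, expression minimum, scaling (upper quartile, quantile, TPM, GC trend removed), eBayes options, the set of libraries in the fit, a replicate block, the limits for passing and each library in turn. A few genes, 1 HOX member among them, are counted but not reported here by name. Nothing in the table was left out, and no reads or proteins were analysed here.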

Additional observations from a re-analysis of the deposited data

Results flagged for a closer look

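The genes below were picked out because their difference between CSCs and non-CSCs was not the same size in SUM149PT as in HCC1937 by limma, in a fit over the 12 sorted libraries. Values are log2 differences, SUM149PT effect minus HCC1937 effect. Among HOX members the difference was -4.89 for HOXC12, -3.38 for HOXA11, -1.50 for HOXC11 and -1.32 for HOXA5, and 2.84 for HOXD8, 2.53 for HOXB9 and 1.58 for HOXB7. HOXB7 did not pass with a pseudocount of 0.01 (adjusted p = 0.0701) or of 1 (0.31, adjusted p = 0.084). HOXC12 and HOXD8 are listed at 0 throughout HCC1937, so their values are SUM149PT effects alone. HOXA5 is the member of these with opposite directions and no overlap of the fractions in either line. It was under the fold limit with a pseudocount of 1 (-0.96).

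Among the HOX cofactors PBX2 (-3.52) had the lower effect in SUM149PT, and PKNOX2 (3.30) and MEIS1 (1.10) the higher. PKNOX2 and MEIS1 were close to 0 in HCC1937. Of the genes in and beside the clusters, HOTAIRM1 (1.36) and CBX5 (1.0) were higher and HOXC13-AS (-1.84) and SKAP2 (-1.13) lower. Chromatin regulators of HOX gave 1.34 for RBBP7 and 1.21 for EZH1 of the Polycomb list, and -2.26 for PSIP1 and -1.15 for MEN1 of the trithorax list. In the retinoic acid pathway STRA6 (-2.93), RDH10 (-2.73) and RXRB (-2.59) were lower and RXRA (1.86) higher. PBX2 and RXRB lie in the major histocompatibility region, where read assignment among alternate copies is not known here. What lies behind these differences was not tested.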

How the results depend on the processing

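The 59 differences of HOX members that passed gave 1236 values over the alternatives, of which 1139 stayed on the same side of the limits, 94 were weaker and 3 turned in direction. The 3 are HOXD8 (0.23) under quantile normalization and HOXA13 (1.04) with the GC trend removed, both in SUM159PT against SUM149PT CSCs, and HOXA5 (0.44) under quantile normalization in SUM159PT against HCC1937 CSCs. The cause was not tested. A member has no value where an alternative left it untested, so such losses are outside this tally. Dropping the fold limit could not lose a pass, so its values stayed on the same side by design. With a pseudocount of 1, which shrinks low values, 5 members passed in SUM149PT, 0 in HCC1937, 5 for the difference of effects, 8 between the lines, and 2 and 7 in SUM159PT against SUM149PT and HCC1937 CSCs. With a minimum mean of 1 FPKM, which tests fewer members, 4 passed in SUM149PT, 0 in HCC1937, 4 for the difference of effects, 8 between the lines, and 3 and 6 in SUM159PT. At an adjusted p up to 1e-04 the counts were 3 in SUM149PT, 0 in HCC1937, 3 for the difference of effects and 4 in SUM159PT against SUM149PT CSCs, and without a fold limit 15, 3, 12 and 20. Leaving out single libraries gave 7 to 8 members in SUM149PT, 1 or 2 in HCC1937, 7 to 8 for the difference of effects, 16 to 19 between the lines, and 9 to 13 and 13 to 15 in SUM159PT.

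With the replicate number as a block the counts of members that passed were 8, 1, 7, 18, 11 and 14 in the 6 comparisons, the same as without a block. Libraries with the same number correlated at 0.143, 0.022 and 0.13 in SUM149PT and at -0.13, -0.051 and -0.028 in HCC1937, and not every library correlated best with its own number, so no pairing was used. Transcript GC content was known for 86.6% to 87.7% of tested genes. Absolute depth is unknown, so the precision of low members such as HOXA13 and HOXD10 cannot be given.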
